A study of Mus musculus with 12 samples.

Results

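The immediate early response genes described here are 10 genes taken by symbol: Fos, Fosb, Jun, Junb and Atf3 of the AP-1 and ATF family, Egr1, Egr2 and Egr3 of the early growth response family, and Ier2 and Ier3. They are 10 of the 54532 genes in each count file, and all 10 were among the 17658 genes with enough counts to be tested.

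Immediate early genes are switched on within minutes of a signal, from transcription factors that already wait in the cell, and their mRNAs are short-lived. Growth factors, cytokines, microbial products and wounding act through MAP kinases on serum response factor with its ternary complex partners and on CREB, which bind the CArG box and the cyclic AMP response element of these promoters. FOS and JUN proteins then pair as AP-1, EGR proteins bind GC-rich sites, and both classes drive later genes of inflammation, migration and repair in the gut wall. Phosphatases of the DUSP family and the mRNA decay factors of the ZFP36 family, themselves early genes, close the response.

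RNA of colonic tissue from male C57BL/6 mice, 6 weeks old before a week of adaptation, was sequenced for 3 libraries in each of 4 groups. Con mice received no DSS, and by the methods they were gavaged with vehicle, where the labels call them untreated. DSS mice drank 3% (w/v) dextran sulfate sodium, which injures the colonic epithelium, for 5 days with vehicle by gavage. UA+DSS and DSS+UA mice had the same DSS together with ursolic acid (UA, a plant triterpenoid) at 200 mg/kg daily by gavage, begun 1 day ahead of DSS in UA+DSS and 3 days into it in DSS+UA, for 7 and 4 days by the methods and for 9 and 5 days by the discussion. The methods speak of 3 colon tissues per group and the labels name no animals. The p-values therefore measure the spread between libraries within groups, estimated over all 12 libraries in 1 fit.

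Libraries held 15566216 to 19498383 counts, and values are CPM, counts per 1000000 after TMM scaling. Libraries are named by group and replicate. The 7 epithelial markers were present in every group and summed to 6892 to 22563 CPM. DSS 2 stood apart with a sum of 15856 CPM over 5 neutrophil markers, against 559 and 743 in DSS 1 and DSS 3 and 1.89 to 2.53 in Con. DSS 3 stood apart with 11557 CPM over 5 pancreatic acinar markers, against at most 555 in any other library. A colon position score, the mean log2 level of 5 Hox genes of the distal colon minus that of 6 Hox genes of the proximal colon, was -5.70 to -4.16 in UA+DSS and 4.11 to 5.06 in DSS+UA, with 0.366 to 3.10 in DSS and -3.03 to 5.53 in Con. No 2 of UA+DSS, DSS and DSS+UA overlapped in this score, so treatment and position of the sampled colon cannot be told apart in any comparison among these 3 groups, the comparisons of either UA group with DSS included. Con was split, with Con 1 at 5.53 and Con 2 and Con 3 at -3.03 and -1.83. UA+DSS lay below every Con library as well, so treatment and position cannot be told apart in UA+DSS against Con. In bulk tissue, fewer cells of a type and less RNA per cell cannot be told apart either.

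The promoters of 3 members are printed as examples of windows with a match. Egr2 was called in 4 of the 6 comparisons, Fosb in 1 and Fos in 0, and a link between sites and calls was not tested. Each window is the 250 bases before a RefSeq start on GRCm38.p6, 5′ to 3′, with matches in capitals. Sites were searched on both strands as the CArG box, TGANTCA for AP-1, TGACGT for the cyclic AMP response element and GCGNGGGCG for Egr. The share of all 32851 windows with a match was 1.47% for the CArG box, 6.75% for AP-1, 6.47% for the cyclic AMP response element and 4.7% for Egr.
Egr2 (start 3 of 5, chr10:67537619-67537868, + strand): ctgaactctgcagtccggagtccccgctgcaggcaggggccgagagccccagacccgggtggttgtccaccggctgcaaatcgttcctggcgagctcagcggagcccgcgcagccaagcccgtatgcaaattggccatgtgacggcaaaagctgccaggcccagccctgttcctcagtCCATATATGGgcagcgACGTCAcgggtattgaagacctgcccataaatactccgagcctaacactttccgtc
Fos (chr12:85473640-85473889, + strand): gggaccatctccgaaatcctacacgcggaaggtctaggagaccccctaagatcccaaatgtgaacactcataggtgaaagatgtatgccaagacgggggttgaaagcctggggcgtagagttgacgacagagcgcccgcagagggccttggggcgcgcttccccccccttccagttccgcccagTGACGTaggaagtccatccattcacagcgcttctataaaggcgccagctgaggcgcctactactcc
Fosb (chr7:19310046-19310295, − strand): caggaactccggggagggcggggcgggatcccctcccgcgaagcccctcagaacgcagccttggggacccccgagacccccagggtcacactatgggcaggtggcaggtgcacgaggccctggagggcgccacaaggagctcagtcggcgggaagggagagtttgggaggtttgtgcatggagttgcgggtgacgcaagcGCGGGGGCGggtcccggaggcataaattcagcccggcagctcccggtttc
The capitals mark a CArG box 72 to 63 bases and a cyclic AMP response element 56 to 51 bases before this Egr2 start, a cyclic AMP response element 66 to 61 bases before the Fos start, and an Egr site 50 to 42 bases before the Fosb start. The Egr2 starts differed: start 1 had 0 matches, start 2 a CArG box alone, and starts 4 and 5 had both sites, as start 3 had. Windows of 7 members were searched, and Egr1, Egr3 and Ier2 were left out of the search. Among the other members searched, Atf3 had a cyclic AMP response element 8 to 3 bases before its start. Jun, Junb and Ier3 held none of the letters searched in their windows. A match here is a run of letters and not a site shown to be bound. Only these 250 bases were searched, so a window without a match does not show that the gene lacks the site.

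Compared with Con, 5 of the 10 members were higher in DSS and none was lower, by edgeR's quasi-likelihood test with a Benjamini-Hochberg adjusted p under 0.05 over all tested genes, here named a call. Of all tested genes, 13.9% were called higher in DSS and 26.5% were called in either direction. The 5 were Egr1, Egr2, Egr3, Junb and Ier3. The median log2 fold change of the 10 was 1.46, beside -0.03 over all tested genes. Fosb, Fos, Jun, Atf3 and Ier2 were not called. The Con and DSS libraries did not overlap for the 5 and for Fosb, that is for 6 of the 10, as for 41.3% of all tested genes.

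**Figure D1:**
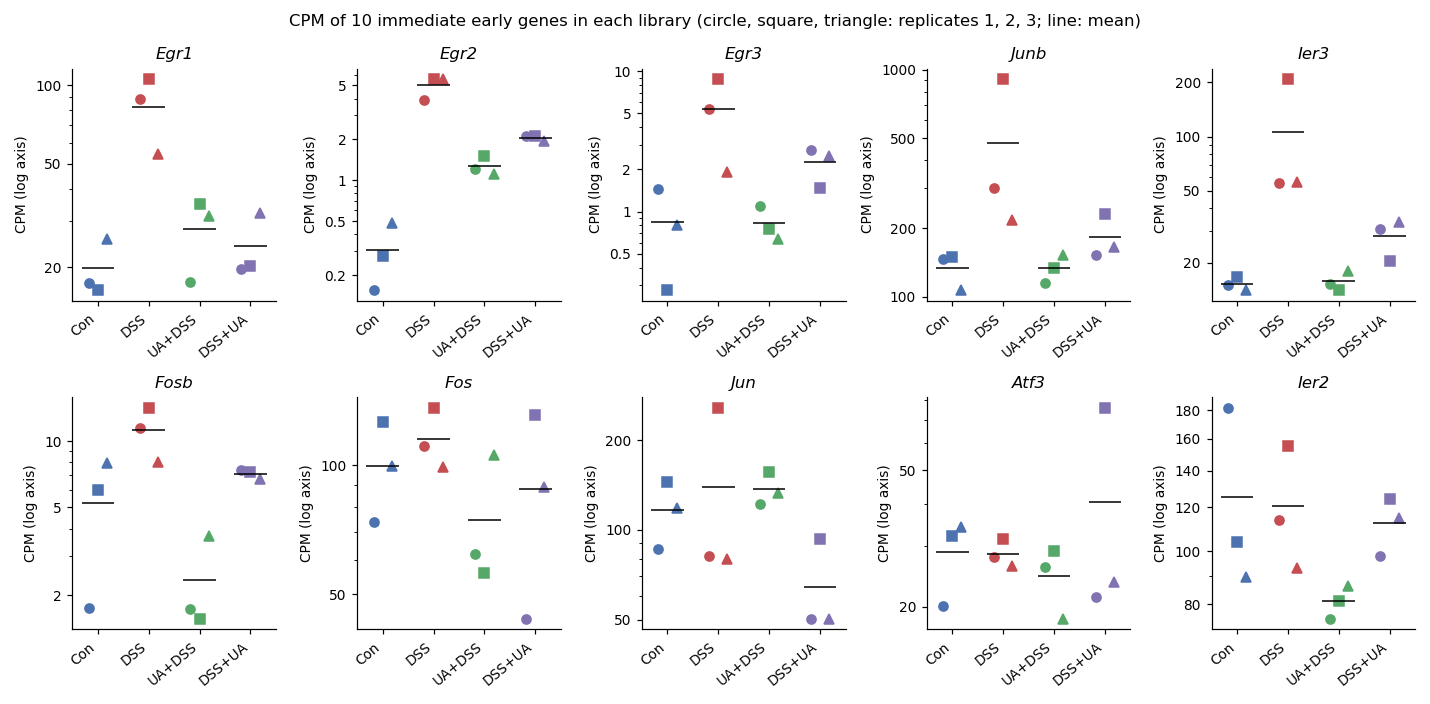
CPM of each of the 10 genes (log axis) in the 12 libraries, by group, with replicates 1, 2 and 3 as circle, square and triangle and the group mean as a line. In Egr1, Egr2, Egr3, Junb, Ier3 and Fosb every DSS point lies above every Con point, while in Fos, Jun, Atf3 and Ier2 the DSS and Con points overlap.

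EGR1 is the best known EGR protein, an activator of cytokine, coagulation and matrix genes in injured tissue. Egr1 (chr18:34859823-34864984) was at 17.4, 16.4 and 25.6 CPM in the Con libraries, at 88.1, 105 and 54.3 in DSS, at 17.5, 34.9 and 31.5 in UA+DSS and at 19.7, 20.2 and 32.2 in DSS+UA. Every DSS library was higher than each of the 9 other libraries, and those 9 overlapped. Egr1 rose in DSS by a log2 fold change of 2.06 (SE 0.33, edgeR adjusted p = 0.00311). It fell against DSS in both UA+DSS (log2 fold change -1.56, adjusted p = 0.0141) and DSS+UA (log2 fold change -1.78, adjusted p = 0.0194). Against Con, its log2 fold change was 0.50 in UA+DSS (adjusted p = 0.535) and 0.28 in DSS+UA (adjusted p = 0.558), neither called.

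EGR2 is a relative with roles in Schwann cells and in the restraint of T cells. Egr2 (chr10:67535475-67542188) was at 0.155, 0.277 and 0.481 CPM in Con, at 3.90, 5.56 and 5.55 in DSS, at 1.22, 1.50 and 1.12 in UA+DSS and at 2.11, 2.10 and 1.94 in DSS+UA. The 4 groups did not overlap, in the order Con, UA+DSS, DSS+UA and DSS. The Con level rests on 17 counts over its 3 libraries, with 297 in DSS, 64 in UA+DSS and 109 in DSS+UA, so its low end is set by few counts. The fitted log2 fold change in DSS was 4.01 (SE 0.41, edgeR adjusted p = 0.000833), the highest of the 10 members.

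Egr2 was lower than in DSS with both schedules, by a log2 fold change of -1.96 in UA+DSS (adjusted p = 0.0103) and of -1.28 in DSS+UA (adjusted p = 0.0484). It was the 1 member called higher in DSS+UA than in Con (log2 fold change 2.73, SE 0.40, adjusted p = 0.00504), where 9.13% of all tested genes were called higher and 18.1% called in all. Libraries of DSS+UA and Con did not overlap for 4 members, as for 38.9% of all tested genes. Between UA+DSS and Con the fitted difference was 2.05 with a 95% interval of 1.17 to 2.93 and an adjusted p of 0.166, not called by edgeR. DESeq2 called that difference with an adjusted p of 0.00325, and 1 of 20 alternatives in all did so. Between UA+DSS and DSS+UA it was -0.68 (adjusted p = 0.206), so a difference between the schedules was not shown by this test although the libraries did not overlap.

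EGR3 acts with EGR2 in lymphocytes and in muscle spindles. Egr3 (chr14:70077203-70082614) was at 1.45, 0.277 and 0.802 CPM in Con, at 5.34, 8.77 and 1.90 in DSS, at 1.09, 0.750 and 0.638 in UA+DSS and at 2.74, 1.48 and 2.49 in DSS+UA. DSS libraries lay above all Con and UA+DSS libraries, while DSS+UA overlapped DSS, with DSS 3 below DSS+UA 1 and DSS+UA 3. Egr3 rose in DSS by 2.65 (SE 0.63, edgeR adjusted p = 0.0129). When a library was left out the rise was 2.09 to 3.28, with edgeR adjusted p at most 0.0406. It fell in UA+DSS against DSS (log2 fold change -2.69, adjusted p = 0.0192). The difference of DSS+UA from DSS was -1.25 (adjusted p = 0.185) and was not called. Against Con it was -0.04 in UA+DSS (adjusted p = 0.985) and 1.40 in DSS+UA (adjusted p = 0.131).

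JUNB is an AP-1 subunit of activated epithelium and myeloid cells. Junb (chr8:84974484-84978718) was at 147, 149 and 107 CPM in Con, at 302, 909 and 218 in DSS, at 115, 134 and 153 in UA+DSS and at 153, 233 and 167 in DSS+UA. DSS 2 was the highest library by far, but DSS 1 and DSS 3 were also above every Con and UA+DSS library. Junb rose in DSS by 1.83 (SE 0.45, edgeR adjusted p = 0.0140), and by 0.95 without DSS 2 (adjusted p = 0.0214). It fell in UA+DSS against DSS (log2 fold change -1.83, adjusted p = 0.0203), and without DSS 2 by -0.96 (adjusted p = 0.0347). Its difference in DSS+UA against DSS was -1.37 (adjusted p = 0.0719), not called, -0.49 without DSS 2 (adjusted p = 0.276), and DSS+UA 2 lay above DSS 3. Against Con the difference was -0.00 in UA+DSS (adjusted p = 0.997) and 0.45 in DSS+UA (adjusted p = 0.473). The neutrophil markers above were also highest in DSS 2, and their part in this result was not tested. Junb shares 173 of its 2301 exonic bases with Prdx2 on the opposite strand, and whether counting used strand is not given in the sources used here. Prdx2 was at -0.25 in DSS against Con (adjusted p = 0.346), not called and opposite in sign to Junb, and higher in DSS+UA than in DSS (0.77, adjusted p = 0.0401).

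JUN is the founding partner of FOS. Jun (chr4:95049034-95052222) was at 86.4, 145 and 118 CPM in Con, at 81.4, 256 and 79.6 in DSS, at 122, 156 and 132 in UA+DSS and at 50.3, 93.0 and 50.3 in DSS+UA. Apart from DSS 2, the DSS libraries were below every Con library. The fitted difference in DSS was 0.26 (SE 0.43, edgeR adjusted p = 0.684) and turned to -0.53 without DSS 2, neither called. The difference of UA+DSS from DSS was -0.03 (adjusted p = 0.975). The mean was lowest in DSS+UA, although DSS+UA 2 lay above Con 1, DSS 1 and DSS 3. DSS+UA was at -1.11 against DSS (adjusted p = 0.121) and at -0.30 without DSS 2 (adjusted p = 0.574). It was at -0.85 against Con (adjusted p = 0.183), and UA+DSS against DSS+UA was at 1.08 (adjusted p = 0.110), none of them called. Its antisense gene Junos held 296 counts over all libraries.

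FOS has a very short-lived mRNA and FOSB is its relative. Fos (chr12:85473890-85477273) was at 73.6, 126 and 99.7 CPM in Con, at 111, 136 and 98.8 in DSS, at 62.0, 56.0 and 106 in UA+DSS and at 43.9, 131 and 88.8 in DSS+UA. The 4 groups overlapped throughout. Fos was not called in DSS against Con (log2 fold change 0.21, 95% interval -0.60 to 1.01, edgeR adjusted p = 0.701), in UA+DSS against DSS (-0.62, adjusted p = 0.258) or in DSS+UA against DSS (-0.39, adjusted p = 0.506).

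Fosb (chr7:19302696-19310051) was at 1.76, 5.99 and 7.97 CPM in Con, at 11.5, 14.1 and 8.03 in DSS, at 1.73, 1.56 and 3.72 in UA+DSS and at 7.37, 7.24 and 6.71 in DSS+UA. DSS was above Con without overlap, though DSS 3 and Con 3 were close. In DSS against Con the difference was 1.10 (SE 0.49, edgeR adjusted p = 0.115), not called. Fosb fell in UA+DSS against DSS (log2 fold change -2.25, adjusted p = 0.0166) and was at -0.66 in DSS+UA against DSS (adjusted p = 0.383). For UA+DSS against DSS+UA it was -1.59 (SE 0.50, adjusted p = 0.0511), just outside the threshold, and 8 of 21 alternatives called it. UA+DSS was at -1.15 against Con (adjusted p = 0.400), with Con 1 inside the UA+DSS range.

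ATF3 is a stress-induced ATF member that restrains cytokine genes. Atf3 (chr1:191170296-191218039) was at 20.1, 32.1 and 34.3 CPM in Con, at 27.9, 31.5 and 26.3 in DSS, at 26.2, 29.1 and 18.4 in UA+DSS and at 21.4, 76.0 and 23.6 in DSS+UA. DSS+UA 2 was the highest library, and all groups overlapped otherwise. Its log2 fold change was -0.01 in DSS against Con (edgeR adjusted p = 0.985), with a 95% interval of -0.95 to 0.93, -0.22 in UA+DSS against DSS and 0.50 in DSS+UA against DSS. The last turned to -0.38 without DSS+UA 2.

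IER3 is a stress-inducible regulator of cell survival and of NF-kB and ERK signals. Ier3 (chr17:35821684-35822923) was at 15.1, 16.6 and 14.1 CPM in Con, at 55.2, 208 and 56.1 in DSS, at 15.3, 14.1 and 17.9 in UA+DSS and at 30.8, 20.4 and 33.5 in DSS+UA. UA+DSS overlapped Con, while DSS+UA lay between Con and DSS without overlap with either. Ier3 rose in DSS by 2.80 (SE 0.47, edgeR adjusted p = 0.00360), and by 1.87 without DSS 2 (adjusted p = 0.000854). It fell in UA+DSS against DSS (log2 fold change -2.76, adjusted p = 0.00998) and in DSS+UA against DSS (-1.92, adjusted p = 0.0362). Without DSS 2 these were -1.82 (adjusted p = 0.00448) and -0.96 (adjusted p = 0.0428). Against Con, UA+DSS was at 0.05 (95% interval -0.93 to 1.03, adjusted p = 0.973) and DSS+UA at 0.89 (adjusted p = 0.177), and UA+DSS against DSS+UA was at -0.84 (adjusted p = 0.214).

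IER2 is a small nuclear protein with a similar early induction. Ier2 (chr8:84661331-84662852) was at 182, 104 and 89.9 CPM in Con, at 114, 155 and 93.1 in DSS, at 75.3, 81.2 and 86.5 in UA+DSS and at 98.0, 124 and 115 in DSS+UA. UA+DSS was below every library of the other groups. Its difference was -0.05 in DSS against Con (edgeR adjusted p = 0.892), -0.57 in UA+DSS against DSS (adjusted p = 0.144), -0.63 in UA+DSS against Con (adjusted p = 0.382) and -0.10 in DSS+UA against DSS (adjusted p = 0.819), none of them called.

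**Figure D2:**
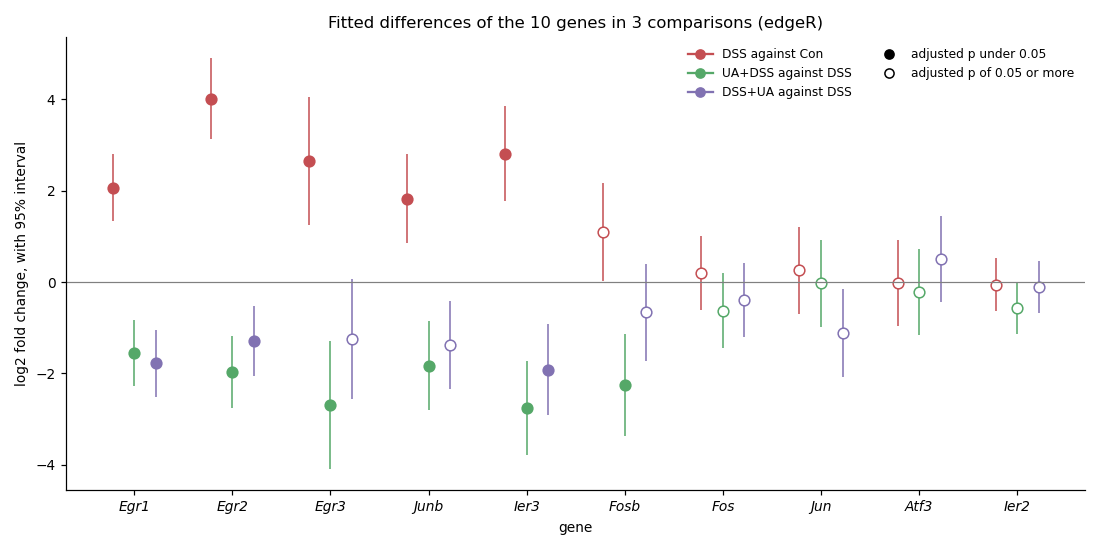
Fitted log2 fold change (points) and 95% interval (lines) of each gene in DSS against Con, UA+DSS against DSS and DSS+UA against DSS, with filled points where the edgeR adjusted p was under 0.05. All 3 comparisons share the DSS libraries, and Egr1, Egr2 and Ier3 are filled in each of them.

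The whole set can be read by comparison. In UA+DSS against DSS, 6 of the 10 members were lower (Egr1, Egr2, Egr3, Junb, Ier3 and Fosb) and none was higher, where 10.5% of all tested genes were called lower and 18.7% called in either direction. The UA+DSS and DSS libraries stood apart without overlap for 7 members, as for 42.8% of all genes. The median log2 fold change of the 10 was -1.70, beside -0.02 over all genes. The later schedule, DSS+UA against DSS, had 3 lower (Egr1, Egr2 and Ier3), where 5% of all genes were called lower and 7.54% called in all. Libraries did not overlap for 4, as for 34.7% of all genes. The median of the 10 was -1.18, beside 0.02 over all genes. The 3 comparisons share the DSS libraries and are not independent of each other.

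The calls against DSS depended on the libraries in the fit. Without UA+DSS 2 none of the 6 calls remained (edgeR adjusted p from 0.0533 to 0.0850, with the directions kept), and over all genes the calls in that comparison fell from 3300 to 183. Without UA+DSS 1 the calls of Fosb and Junb were lost, without UA+DSS 3 those of Junb and Egr3, and without DSS 2 that of Egr3 (log2 fold change -2.13, adjusted p = 0.0559). For DSS+UA against DSS, 0 of the 3 calls remained without DSS+UA 2 or DSS+UA 3, 1 without Con 2, any of the UA+DSS libraries or DSS+UA 1, and 2 without DSS 1, DSS 2 or DSS 3. With the position score as a covariate, none of the 6 and none of the 3 was called, and over all genes 3 and 199 calls were left. The fitted log2 fold changes in UA+DSS were then -3.41 for Fosb, -2.97 for Egr2, -2.82 for Ier3, -1.73 for Junb and -1.57 for Egr1, with Egr3 smaller at -1.38 (adjusted p from 0.0702 to 0.387 over the 6). In DSS+UA they were -1.78 for Egr1, -1.88 for Ier3 and -0.81 for Egr2 (adjusted p from 0.0567 to 0.170). The 5 calls in DSS against Con remained without any single library and with the position score.

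Against Con, UA+DSS had 0 members called (3 at an unadjusted p under 0.05, namely Fosb, Egr2 and Ier2), with 1 by DESeq2 and 0 by limma-voom, where 0.00566% of all tested genes were called and 12.1% had an unadjusted p under 0.05. Libraries did not overlap for 2 members, as for 20.6% of all genes. UA+DSS against DSS+UA, the direct test between the schedules, also had 0 members called (3 at an unadjusted p under 0.05, namely Fosb, Jun and Egr3), with 1 by DESeq2 and 0 by limma-voom, where 16.8% of all genes were called and 33.8% had an unadjusted p under 0.05. The UA+DSS and DSS+UA libraries did not overlap for 7 of the 10 members, which held for 45.3% of all tested genes. An F test over the 4 groups called 6 of the 10 (Fosb, Junb, Egr1, Egr2, Egr3 and Ier3) and 35% of all genes.

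Per kilobase of exon, the members spanned a wide range in Con. Ier2 was highest at 82.3 ± 32.5 CPM per kb (SD, n = 3), then Junb at 58.4 ± 10.2, Fos at 42.4 ± 11.1 and Jun at 36.5 ± 9.14, neighbours that lay within 1 SD of each other except for Junb and Fos. Ier3 at 13.5 ± 1.10 and Atf3 at 13.4 ± 3.54 were alike, Egr1 was at 4.42 ± 1.13 and Fosb at 0.839 ± 0.508, and Egr3 at 0.191 ± 0.133 and Egr2 at 0.0896 ± 0.0485 were lowest. In DSS, Junb at 207 ± 164 and Ier3 at 94.2 ± 77.9 came ahead of Ier2 at 79.2 ± 20.6, with SDs that overlap. Egr1 at 18.4 ± 5.80 passed Atf3 at 13.3 ± 1.24, and Egr2 at 1.47 ± 0.282 and Egr3 at 1.21 ± 0.779 came near Fosb at 1.80 ± 0.490. In UA+DSS the order was again led by Junb at 58.2 ± 8.21 and Ier2 at 53.2 ± 3.68, with Ier3 at 13.9 ± 1.72. DSS+UA kept Ier3 ahead of Jun, at 25.0 ± 6.11 and 20.2 ± 7.73, within their SDs.

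Ratios of counts between 2 members of 1 library do not depend on scaling. The ratio of Junb to Jun counts was 1.70, 1.03 and 0.906 in Con, 3.72, 3.55 and 2.75 in DSS, 0.946, 0.861 and 1.15 in UA+DSS and 3.05, 2.50 and 3.31 in DSS+UA. Every DSS and DSS+UA library had a higher ratio than every Con and UA+DSS library, and DSS 2 lay within the DSS range although its levels did not. Mean Jun was lowest in DSS+UA and mean Junb highest in DSS. The ratio of Ier3 to Ier2 counts was 0.0828, 0.159 and 0.157 in Con, 0.485, 1.35 and 0.602 in DSS, 0.203, 0.174 and 0.207 in UA+DSS and 0.314, 0.165 and 0.292 in DSS+UA. Here the DSS libraries stood above all others, and DSS+UA overlapped UA+DSS. Fosb to Fos was 0.104, 0.104 and 0.0813 in DSS and 0.0279, 0.0279 and 0.0352 in UA+DSS, with Con (0.0239 to 0.0799) below DSS and overlapping UA+DSS, and DSS+UA (0.0553 to 0.168) above UA+DSS and overlapping DSS. These ratios are descriptions without a test.

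**Figure D3:**
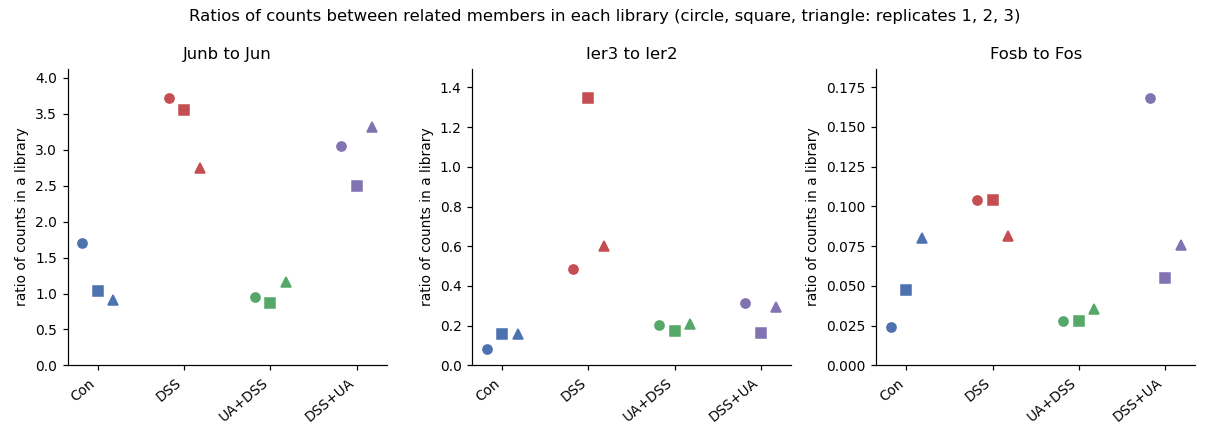
Ratio of counts in each library for Junb to Jun, Ier3 to Ier2 and Fosb to Fos, by group, with replicates 1, 2 and 3 as circle, square and triangle. Junb to Jun is 2.50 to 3.72 in DSS and DSS+UA and 0.861 to 1.70 in Con and UA+DSS.

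The members did not move as 1 block. Over the 12 libraries, the 45 pairs of members had a median Pearson r of 0.388 on log2 CPM, from -0.133 to 0.923 (Junb with Ier3), and 3 pairs were over 0.8, as a description in which all points share the group structure and DSS 2. The share of variance of log2 CPM that lay between groups was 95.8% for Egr2, 82.3% for Egr1 and 81.5% for Ier3, against a median of 58.05% over all tested genes. It was 26.9% for Fos and 11.6% for Atf3. The spread within groups was larger than the median of all genes (SD 0.371 on the log2 scale) for 8 members, with 0.798 for Egr3, 0.681 for Fosb and 0.587 for Junb, and smaller for Egr2 at 0.341 and Ier2 at 0.340. Genes with the closest pattern to the standardized mean of the members were Abtb2 (r = 0.958), Csrnp1 (0.949), Fxyd5 (0.946), Tlr6 (0.946) and Stx6 (0.943) over the 12 libraries.

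Early genes outside the members are given from a list chosen, as the members were, with earlier results of these data known. Of all tested genes, 13.9% were called above Con in DSS. Among 24 such genes outside the members, 10 were called above Con in DSS and 0 below, with a median log2 fold change of 1.43. They included Ptgs2, the inducible prostaglandin synthase (log2 fold change 4.21, SE 0.63, edgeR adjusted p = 0.00279), Arc, a neuronal and myeloid early gene (2.74, adjusted p = 0.00317), and Sik1, a salt-inducible kinase (2.07, adjusted p = 0.00390). Ptgs2 was at 5.02, 6.16 and 9.84 CPM in Con and at 58.1, 195 and 137 in DSS, at 6.99, 3.06 and 10.3 in UA+DSS and at 12.4, 9.16 and 28.1 in DSS+UA. Every DSS library was above all others for Ptgs2. The count of 10 was also 10 without DSS 2, 14 without DSS 3 and 7 without Con 2.

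Of the same 24, UA+DSS had 12 below DSS and 0 above it (median -1.48), led by Ptgs2 (-4.25, edgeR adjusted p = 0.00800), Csrnp1 (-3.18, adjusted p = 0.0101), an AXIN-related nuclear factor, and Sik1 (-1.89, adjusted p = 0.0116). This count was 1 when UA+DSS 2 was left out, 7 without UA+DSS 3, 8 without UA+DSS 1 and 9 without DSS 2, where Csrnp1 was at -1.97. DSS+UA had 8 below DSS and 0 above it (median -1.09), with Sik1 (-1.98, adjusted p = 0.0192), Ptgs2 (-2.98, adjusted p = 0.0246) and Nr4a3, an orphan nuclear receptor (-2.88, adjusted p = 0.0363). That count was 0 when DSS+UA 3 was left out, 1 for DSS+UA 1 or DSS+UA 2, 2 for Con 2, DSS 2 or UA+DSS 2, 3 for UA+DSS 3 and 4 for UA+DSS 1. Nr4a3 was at -1.76 (adjusted p = 0.109) when DSS 2 was left out. With the position score as a covariate 0 and 1 calls were left. Without that covariate, 10.5% of all tested genes were called below DSS in UA+DSS and 5% in DSS+UA. Arc was the 1 gene of the 24 called between DSS+UA and Con, where it was higher (2.78, edgeR adjusted p = 0.00539), at 8.32, 2.72 and 4.49 CPM against 0.828, 0.555 and 0.856. In that comparison 18.1% of all tested genes were called in either direction and 9.13% higher.

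Genes that end the response were followed in the same way. Of 17 DUSP, Sprouty and mRNA decay genes, 7 were called above Con in DSS and 0 below, 6 were lower in UA+DSS than in DSS and 5 lower in DSS+UA than in DSS, with 0 higher in both. The matching shares of all tested genes were 13.9%, 10.5% and 5%. Dusp1, a nuclear phosphatase of p38 and JNK, was at 18.0, 23.8 and 23.9 CPM in Con and at 137, 934 and 120 in DSS. It rose by 4.18 (edgeR adjusted p = 0.00422) and by 2.55 without DSS 2. Its difference from DSS was -3.45 in UA+DSS (adjusted p = 0.0137) and -3.32 in DSS+UA (adjusted p = 0.0276), and -1.82 and -1.67 without DSS 2. Dusp2, a lymphoid and myeloid ERK phosphatase, rose by 3.94 (adjusted p = 0.00415) and Dusp4 by 1.34 (adjusted p = 0.00414) in DSS. Dusp2 was at 3.02 without DSS 2 and at 4.93 without Con 1. The counts of calls against DSS were 0 without UA+DSS 2 for UA+DSS, and for DSS+UA were 0 without DSS+UA 2 or DSS+UA 3, 2 without UA+DSS 1 or UA+DSS 2 and 3 without DSS 2, UA+DSS 3 or DSS+UA 1. Both were 0 with the position score as a covariate.

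Among 11 further AP-1 relatives, 4 rose in DSS against Con and 0 fell. Of all tested genes, 13.9% were called higher there, and 10.5% and 5% were called below DSS in UA+DSS and DSS+UA. Batf, a leukocyte AP-1 factor, was at 4.21 (edgeR adjusted p = 0.00429), Jdp2, a JUN-dimerizing repressor, at 3.45 (adjusted p = 0.00426) and Maff, a small MAF protein, at 1.17 (adjusted p = 0.00503). Without DSS 2, Batf was at 2.79 and Jdp2 at 2.14. Below DSS in UA+DSS were 4, with Jdp2 (-3.09, adjusted p = 0.0123), Fosl1 (-2.73, adjusted p = 0.0180) and Batf (-3.01, adjusted p = 0.0185). Without DSS 2 these 3 were at -1.79, -1.65 (adjusted p = 0.0508) and -1.61, and 2 of the list were called. The count was 2 without UA+DSS 1 or UA+DSS 3, and 0 without UA+DSS 2 or with the position score. Below DSS in DSS+UA was 1, Jdp2 (-2.88, adjusted p = 0.0260), at -1.56 without DSS 2 and not called without DSS+UA 2 or DSS+UA 3.

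EGR proteins induce NAB co-repressors that bind and limit them. Nab1 was at 68.0, 81.5 and 87.4 CPM in Con, at 130, 156 and 132 in DSS, at 91.3, 69.5 and 79.4 in UA+DSS and at 151, 128 and 138 in DSS+UA. DSS and DSS+UA overlapped each other and lay above Con and UA+DSS. Nab1 rose in DSS by 0.82 (edgeR adjusted p = 0.00526) and fell in UA+DSS against DSS by 0.80 (log2 fold change -0.80, adjusted p = 0.0121). The fall was called under 19 of 21 alternatives, and not without UA+DSS 2. In DSS+UA it was higher than in Con (0.81, adjusted p = 0.00853). Nab2 rose in DSS by 1.19 (edgeR adjusted p = 0.0452), a call made in 2 of the 12 fits that left out a library. It fell in UA+DSS against DSS (-1.89, adjusted p = 0.0146), a call made under 19 of 21 alternatives and also not without UA+DSS 2. Egr4, the remaining family member, had 5 counts in DSS+UA and 0 in the other groups and was not tested.

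Upstream factors were taken from lists of kinases and of serum response factor with its partners. Of all tested genes, 26.5% were called in DSS against Con and 18.7% in UA+DSS against DSS. Of 14 MAP kinases and MAP kinase kinases, 1 was called in DSS against Con, Mapk9 (log2 fold change -0.43, edgeR adjusted p = 0.0398), and 0 were higher. Mapk3, which encodes ERK1, was the 1 called in UA+DSS against DSS, higher by 0.75 (adjusted p = 0.0481), and not called without Con 2, Con 3, DSS 1, DSS 2, DSS+UA 3 or any UA+DSS library. Of serum response factor and 5 partners, 2 were called in DSS against Con, where 26.5% of all tested genes were. Elk3, a ternary complex factor, rose in DSS (1.43, adjusted p = 0.00496) and fell against DSS in UA+DSS (-1.74, adjusted p = 0.00807) and in DSS+UA (-1.42, adjusted p = 0.0202). Elk3 is also known from endothelial cells. The 5 endothelial markers summed to 200 to 336 CPM in DSS, to 134 to 165 in Con, to 96.3 to 116 in UA+DSS and to 84.1 to 88.9 in DSS+UA, and their part in the Elk3 result was not tested. Mrtfb, a coactivator of serum response factor, was lower in DSS than in Con (-0.47, adjusted p = 0.0445). Elk3 was called in DSS against Con under all 21 alternatives. It was called in UA+DSS against DSS under 20 of 21, and the setting that lost it was not a left-out library. In DSS+UA against DSS it was called under 17 of 21, and not without DSS+UA 2 or DSS+UA 3. The Mapk9 and Mrtfb calls were each lost in most fits that left out a library.

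**Figure D4:**
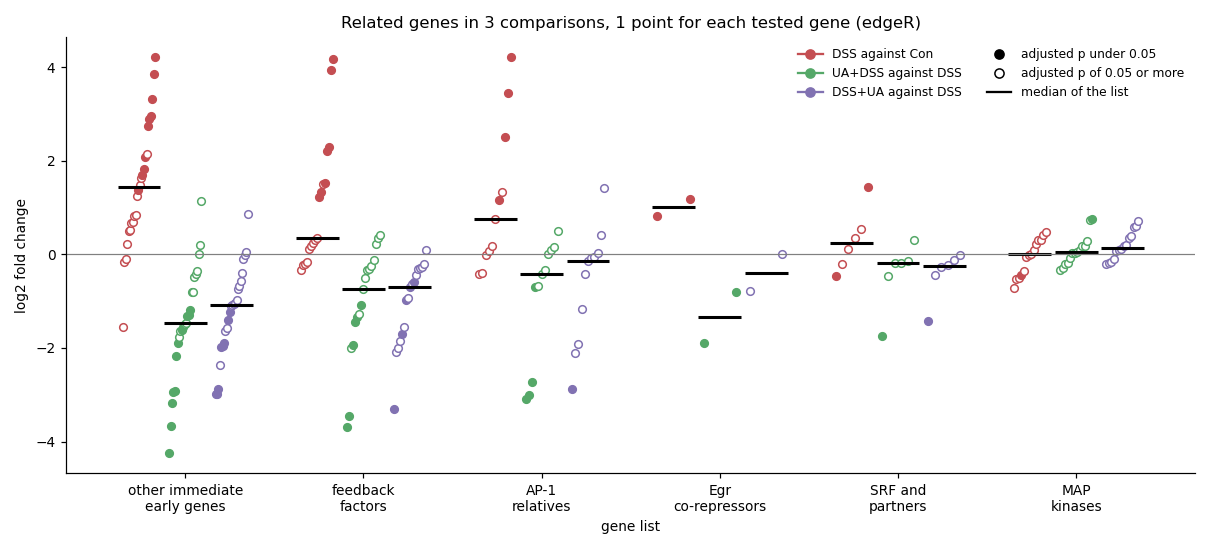
Log2 fold change of each tested gene of 6 lists of related genes in DSS against Con, UA+DSS against DSS and DSS+UA against DSS, with filled points where the edgeR adjusted p was under 0.05 and a line at the median of the list. Other immediate early genes have medians of 1.43, -1.48 and -1.09, while MAP kinases lie near 0.

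Markers of most cell types listed had their highest or lowest sum in a DSS library, while those of smooth muscle did not. Of all tested genes, 13.9% were called higher in DSS than in Con and 26.5% were called there in either direction. In DSS+UA against Con, 18.1% were called in either direction and 9.13% higher. The 5 fibroblast markers summed to 1713 to 3317 CPM in DSS, 537 to 861 in Con, 421 to 932 in UA+DSS and 547 to 1182 in DSS+UA, and 4 of the 5 were called higher in DSS than in Con. The 6 macrophage markers summed to 500 to 1088 CPM in DSS and to 75.2 to 220 in Con, with 5 of 6 called higher, and to 161 to 401 in UA+DSS and 181 to 602 in DSS+UA. The 5 neutrophil markers were all called higher in DSS, and summed to 15.0 to 60.9 CPM in UA+DSS and 128 to 644 in DSS+UA. Epithelial markers summed to 6892 to 10898 CPM in DSS, below the Con range of 11851 to 16461, with 1 of the 7 called lower. For these 4 cell types the highest sum (for epithelium the lowest) was in a DSS library. The highest sum was also in a DSS library for endothelial, T cell, and B and plasma cell markers. The 5 T cell markers summed to 29.5 to 83.4 CPM in DSS and 10.9 to 19.8 in Con, with 4 called higher. They summed to 17.6 to 60.3 in UA+DSS and 20.4 to 53.9 in DSS+UA. B and plasma cell markers summed to 1678 to 3020 CPM in DSS and 893 to 2148 in Con, with 2 called higher. They summed to 900 to 2090 in UA+DSS and 775 to 1842 in DSS+UA. The 6 smooth muscle markers summed to 661 to 1454 CPM in DSS, 1094 to 3467 in Con, 1125 to 2436 in UA+DSS and 436 to 866 in DSS+UA, and 3 of the 6 were lower in DSS+UA than in Con. The 6 markers of neurons and glia summed to 34.4 to 45.6 CPM in DSS, 12.7 to 32.2 in Con, 23.6 to 38.7 in UA+DSS and 10.2 to 40.1 in DSS+UA. Their highest sum was also in a DSS library, with 0 of the 6 called in DSS against Con. The part of these markers in the member results was not tested. DSS 3, with the pancreatic markers, was not the highest DSS library for any called member except as a near tie for Egr2.

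**Figure D5:**
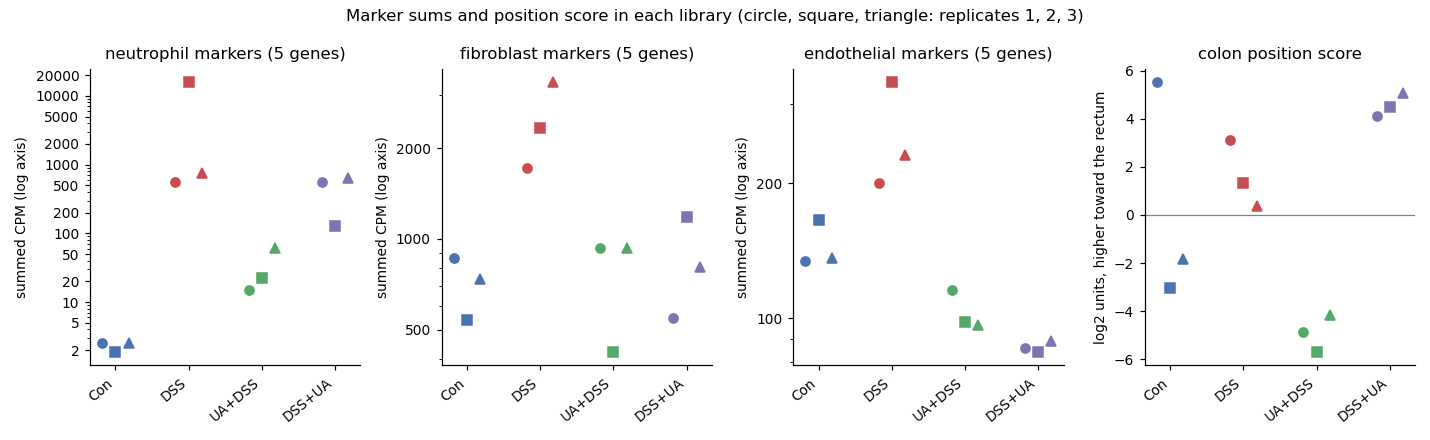
Summed CPM of 5 neutrophil, 5 fibroblast and 5 endothelial markers (log axes) and the colon position score (log2 units) in each library, with replicates 1, 2 and 3 as circle, square and triangle. DSS 2 has 15856 CPM of neutrophil markers, and the position scores of UA+DSS (-5.70 to -4.16) and DSS+UA (4.11 to 5.06) lie at opposite ends.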

How the data were processed

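Colon RNA of 12 samples, 3 in each of 4 groups taken from the labels, was analysed from 1 count file per sample. The deposited values are raw read counts per gene: by the methods, the authors checked reads with FastQC and mapped them to GRCm38 with HISAT2, and the submitters' processing notes also name Cuffdiff. The methods also credit the read counts of genes to HISAT2, an aligner. Not given in the sources used here were versions, annotation release and use of strand. The labels name Trizol and the methods RNeasy for RNA. Each file held 54532 genes, of which 54495 were named by GENCODE M21 and the other 37, with 0.003644% of counts, were tested by identifier.

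Counts were fitted with edgeR 4.0.16 (R 4.3.3): filterByExpr by group, TMM factors, robust quasi-likelihood fit of all 12 samples, Benjamini-Hochberg adjustment over 17658 genes, threshold 0.05. Total counts were 15566216 to 19498383 (median 18569669), and Egr2 and Egr3 rest on the fewest counts of the members. The common biological coefficient of variation was 0.3519, and log2 CPM used a prior count of 2. Fold changes are log2, with 95% intervals. The methods give no model for this test. The fit was also run on simulated counts with 200 changed genes. These held no outlying library and no position difference, and the outcome is not used here. Alternatives were library size alone, upper-quartile factors, DESeq2 1.42.0, limma-voom (limma 3.58.1), no filter, at least 10 counts in every sample, a fit of the 2 groups, the replicate number as a block, the position score as a covariate, and leaving out each of the 12 libraries.

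Members and lists were chosen with earlier results of these data known. The text names all 10 members, per list and comparison at most 3 called genes with the smallest p, and the 5 genes most correlated with the members' mean. Other genes named with values (Prdx2, Junos, Egr4) bear on a member. Promoter sequences are from RefSeq (GRCm38.p6). Tables and figures were made with Python 3.11.15, pandas 2.3.3, numpy 2.4.6 and matplotlib 3.10.9.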

Additional observations from a re-analysis of the deposited data

Results flagged for a closer look

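UA+DSS and DSS+UA differ in when ursolic acid was begun and for how long it was given, and 5 of 83 tested genes of the related lists (6.02%, beside 16.8% of all tested genes) differed between them by edgeR's test of that difference, a share below that of all genes. Nab1, an EGR co-repressor, was lower in UA+DSS (log2 fold change -0.79, adjusted p = 0.0105). Arc, an early gene, was also lower in UA+DSS (-2.23, adjusted p = 0.0105). Hspe1, a mitochondrial chaperonin, was at -0.80 (adjusted p = 0.0167), and Hsp90aa1, a cytosolic chaperone, at -0.80 (adjusted p = 0.0400). Mrtfb, a coactivator of serum response factor, was higher in UA+DSS (0.54, adjusted p = 0.0374). Nab1 and Arc were not called without UA+DSS 2, and Hspe1 was not called without UA+DSS 1, UA+DSS 3 or DSS+UA 3. Hsp90aa1 was not called without Con 2, DSS+UA 1, DSS+UA 3 or any UA+DSS library, and Mrtfb was not called without Con 2, Con 3, DSS 1, UA+DSS 2, UA+DSS 3 or any DSS+UA library. With the position score as a covariate, none of the 5 was called, and the schedule and the position of the sampled colon cannot be told apart. No member passed the same test, though 5 did in a fit of the 2 groups and 3 without DSS 2, and groups of 3 libraries were not tested for outlying samples.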

How the results depend on the processing

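The number of members called in DSS against Con was 5, and 3 with at least 10 counts in every sample (a filter that removed Egr2 and Egr3) and 3 in a fit of the 2 groups; it was 5 whichever library was left out. For UA+DSS against DSS it was 6, and 0 with the position score, and 0 to 7 when a library was left out. For DSS+UA against DSS it was 3, and 1 without the filter, 1 in a fit of the 2 groups, 1 with the replicate block and 0 with the position score, and 0 to 3 when a library was left out. In UA+DSS against Con it was 0, and 1 by DESeq2. In DSS+UA against Con it was 1, and 0 with at least 10 counts in every sample, 2 in a fit of the 2 groups and 1 to 3 when a library was left out (3 without DSS 2). In UA+DSS against DSS+UA it was 0, and 1 each by DESeq2, without the filter, with at least 10 counts in every sample and with the replicate block, 5 in a fit of the 2 groups, and 0 to 3 when a library was left out (3 without DSS 2). Over the 4 groups it was 6, and 5 to 6 when a library was left out. Fewer samples, fewer genes or a further covariate enter these fits, and otherwise the cause was not tested.

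Directions turned only in comparisons where the member was not called. In DSS against Con, Atf3 was at 0.068 with library size alone, 0.024 by limma-voom and 0.15 with the position score, and -0.22 to 0.12 when a library was left out. Ier2 was at 0.024 with library size alone and -0.28 to 0.31 when a library was left out, and Jun at -0.53 to 0.54. Jun in UA+DSS against DSS was at 0.20 by limma-voom, 0.17 with the replicate block and -0.31 to 0.76 when a library was left out, and Ier2 at 0.11 with the position score. Atf3 in DSS+UA against DSS ranged from -0.38 to 0.82 when a library was left out, and Ier2 from -0.24 to 0.13. In UA+DSS against Con, Junb was at 0.010 without the filter, 0.026 with the replicate block, 0.077 with the position score and -0.15 to 0.10 when a library was left out. Egr3 there was at 0.19 by limma-voom, 0.0042 with the replicate block, 1.17 with the position score and -0.44 to 0.60, and Ier3 at -0.0030 with the position score and -0.056 to 0.13. Egr3 in UA+DSS against DSS+UA was at 0.42 with the position score. Of the other values of members and alternatives, 910 kept direction and side of the threshold, 48 lost and 22 gained a call.

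With the position score, Egr2 in DSS+UA against Con was at 3.49. Other early genes called in DSS against Con numbered 10, and 16 by DESeq2. They numbered 12 in UA+DSS against DSS, and 7 in a fit of the 2 groups. They numbered 8 in DSS+UA against DSS, and 3 by limma-voom, 1 without the filter, 1 in a fit of the 2 groups and 3 with the replicate block. Feedback genes numbered 7, 6 and 5 in these comparisons, and 4, 3 and 1 in a fit of the 2 groups; in DSS+UA against DSS they were 9 by DESeq2, 1 without the filter and 3 with the replicate block. Replicate numbers did not pair the samples: 5 of 18 same-numbered pairs had a correlation of deviations over 0.1 (range -0.216 to 0.187), and 5 of 12 samples correlated best with their own number. Library size alone moved the median of all genes by -0.14 in DSS+UA against DSS. Egr2 and Egr3 rested on 17 to 322 counts per group, and the smallest difference detectable at this depth was not tested.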

Other observations

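Heat shock genes, a separate stress-induced class, were measured as 9 genes. Of all tested genes, 9.13% were called higher in DSS+UA than in Con and 13.9% higher in DSS than in Con. In DSS+UA 6 of the 9 were called higher than in Con and 0 lower, with a median log2 fold change of 0.91, beside -0.03 over all tested genes. They included Hspe1 (0.99), Hsp90aa1 (1.20) and Hsph1, a co-chaperone of HSP70 (1.49). In DSS against Con 3 of the 9 were higher, and 1 without Con 1 or Con 2. Against DSS, 0 were called in DSS+UA by edgeR (1 by DESeq2). The summed level was 1689 to 2258 CPM in Con, 2820 to 3167 in DSS, 2018 to 2864 in UA+DSS and 3024 to 4123 in DSS+UA. Most of that sum was Hspa8, with a mean of 2372 CPM in DSS+UA. The 9 genes differed among themselves: Hspa1a (3.83 to 4.08 CPM in DSS+UA, 7.13 to 14.6 in DSS), Hspa1b (12.6 to 18.3 and 22.0 to 30.2) and Hspb1 (16.7 to 49.2 and 72.7 to 82.8) lay wholly below DSS in DSS+UA, while Hspa8 and Hspe1 lay wholly above it.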
